A study of Homo sapiens with 2 samples.

Results

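The LRP and sortilin family receptors described here are 9 genes of the 25556 in the deposited expression table, taken by symbol: LRP1, LRP4, LRP5, LRP6, LRP8, LRP10, SORL1, SORT1 and LRPAP1. They were followed in 1 RNA immunoprecipitation (IP) library and 1 input library of Huh-7, an established line from a human liver cancer, of WT genotype, with none as the treatment of the input. RNA immunoprecipitation sequencing compares the RNA that an antibody brings down from a cell lysate with the RNA of the lysate itself, and 90% of the lysate went to the IP and 10% to the input. The target of the antibody is stated in conflicting ways: SRSF7, a splicing factor, in the design text, SPSF7 in the treatment of the IP, and YTHDF2, a reader of m6A, in the protocol of both samples, which also gives poly(A) selection. The libraries are therefore called the IP and the input only. The genes were chosen by family with their IP and input RPKM and their peaks already known, so ratios and peaks below are a description without a test. With 1 library per group nothing has a replicate check.

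LRP proteins are transmembrane receptors that bind secreted proteins at the cell surface, carry them into endosomes and mostly return to the surface. In the liver LRP1 clears lipoprotein remnants and protease-inhibitor complexes, while LRP5 and LRP6 are co-receptors for Wnt ligands. SORT1 and SORL1 carry a Vps10p domain and sort proteins between the Golgi, endosomes and the cell surface. LRPAP1, also called RAP, is a chaperone of the endoplasmic reticulum that keeps newly made receptors of the LRP family from binding ligands too early.

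Summed over genes, the IP held 5897293 and the input 2782045 assigned reads, recovered from the RPKM values, which are reads scaled by exonic length and by the reads assigned in the library. Reads of overlapping genes appear to be counted in each gene, so these sums exceed the number of distinct reads. For example, RN7SK and AL162581.1 each had 13037 IP and 60082 input reads. All 12 hepatocyte and Huh-7 markers were above 1 RPKM in the input, from 3.79 to 2814 with AFP highest, which goes with the label. The fibroblast and endothelial markers in the table summed to 2.45 and 3.99 RPKM in the input, the 4 immune markers to 19.3, and the 4 erythroid markers to 1052 in the input and 694 in the IP. Protein-coding genes took 90.1% of the IP and 68.8% of the input sum of assigned reads, and reads counted in more than 1 gene enter these shares. The part of these differences in the results was not tested. In RNA of bulk cells the level of a gene does not tell the number of expressing cells from the RNA per cell. Intervals are 95% intervals that cover counting error only. Of genes with 1 to 20 reads, 77.3% in each library had an even number, which independent reads would not give, so intervals from the full reads are likely too narrow, and for the main comparisons a wider interval from 50% of the reads, chosen after seeing the data, is added.

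LRP1 was the highest of the 9 genes in both libraries, and SORL1 and LRP8 the lowest. LRP1 stood at 33.2 RPKM in the input and 71.2 RPKM in the IP. Its co-receptor relatives LRP5 and LRP6 had 21.4 and 15.2 RPKM in the input and 37.6 and 15.7 in the IP. These levels are per length of all exons of all isoforms merged, so a gene whose table entry holds many isoform exons gets a lower level than its mature mRNA would. The chaperone LRPAP1 had 19.7 RPKM in the input and 32.9 in the IP. These 4 genes were between percentiles 81.4 and 90.9 of input RPKM among the 14057 genes whose mean over both libraries reached 1 RPKM. LRP10, a receptor that shuttles between the Golgi and endosomes, had 5.15 and 6.19 RPKM in the input and the IP. SORT1 had 3.86 and 4.199 RPKM in the input and the IP, and LRP4, the agrin receptor of the neuromuscular junction, 2.88 and 3.76. LRP8, the reelin and apolipoprotein E receptor also called ApoER2, had 1.10 and 1.78 RPKM and SORL1 1.17 and 1.30, over 19668 and 19408 merged exonic bases. All 9 passed this minimum of 1.

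**Figure D1:**
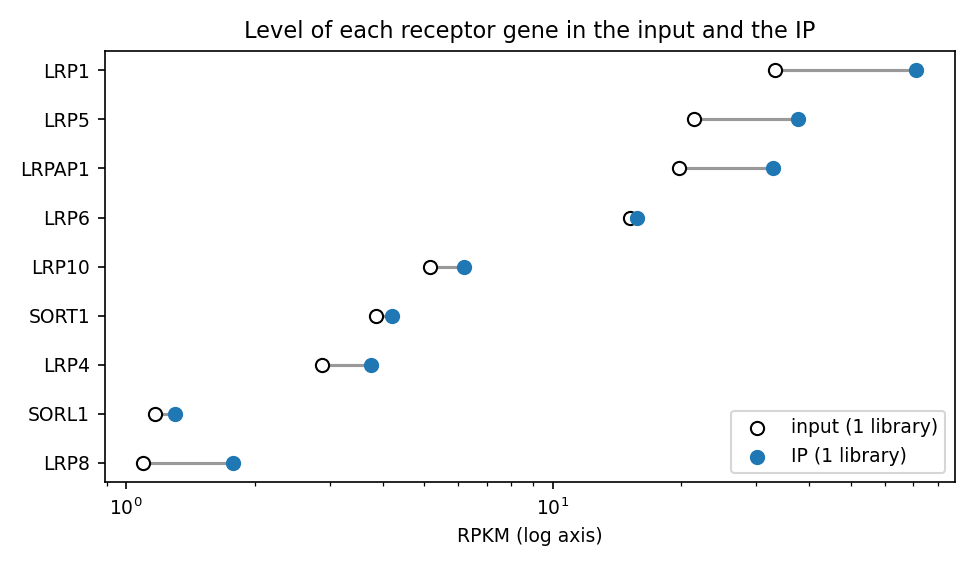
RPKM of each gene in the input (open circles) and in the IP (filled circles), 1 library each, on a log axis. LRP1 is highest with 33.2 and 71.2 RPKM, the IP is to the right of the input in all 9 genes, and the circles of LRP6 nearly touch.

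On the deposited scale all 9 genes were above their input level, with ratios from 1.04 (LRP6) to 2.14 (LRP1), but only 4 of 9 stayed above 1 when reads in protein-coding genes set the scale. Of the 9, 1 gene was at least 2-fold higher on the scale of log2((IP + 1)/(input + 1)) of RPKM, and 11.3% of the 14057 genes were. Among genes of at least 5000 merged exonic bases, a length that all 9 exceed, 9.24% were. None of the 9 was at least 2-fold lower, and 8.25% of the 14057 genes and 1.34% of those of at least 5000 bases were, so a count of 0 of 9 is close to that of genes of this length. The median log2 ratio of the 9 was 0.30 against 0.14 for the 14057 genes and 0.26 for the 5162 genes of at least 5000 exonic bases. The distance between the median of the 9 and that of all genes was 0.15 to 0.16 under the 4 other scalings tried. It could hardly differ, since a scaling moves all ratios by the same factor, so it is no check of the distance. Just inside the 2-fold threshold was LRP1 with a log2 ratio of 1.08, and just outside were LRP5 with 0.78 and LRPAP1 with 0.71.

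The cargo receptor LRP1 was counted 8753 times in the IP and 1929 times in the input, with 60.7% of the 14415 IP reads of the 9 genes. Its ratio was 2.14 (interval 2.04 to 2.25, or 2.00 to 2.30 from 50% of the reads). It was 1.94 after centring on the median of all genes, 1.99857 with the trimmed mean of M values and 1.63 on the protein-coding scale, so that the 2-fold count of 1 became 0 under each of these. LRP1 was the highest of the 9 under each scaling, since a scaling moves all ratios by the same factor.

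The Wnt co-receptors LRP5 and LRP6, close paralogues, differed in their ratios beyond counting error. LRP5 had 1370 reads in the IP, 368 in the input and a ratio of 1.76 (1.56 to 1.98). LRP6 had 962 reads in the IP, 438 in the input and a ratio of 1.04 (0.924 to 1.16), the lowest of the 9. The intervals did not overlap, also from 50% of the reads (1.49 to 2.08 and 0.881 to 1.22). On the protein-coding scale LRP5 was at 1.34 times (1.19 to 1.51) and LRP6 at 0.790 times (0.705 to 0.887) the input level. With equal RPKM sums LRP6 was at 2.48 times (2.21 to 2.78), so its direction rests on the scaling. In the input the levels of both were closer, 21.4 and 15.2 RPKM.

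The chaperone LRPAP1 resembled LRP5 more than LRP6. It had 2295 reads in the IP, 649 in the input and a ratio of 1.67 (1.53 to 1.82), or 1.27 on the protein-coding scale. LRP8, with 206 IP and 60 input reads, had a ratio of 1.62 (1.21 to 2.20, or 1.07 to 2.52 from 50% of the reads). Its wide interval overlapped those of LRP1, LRP5 and LRPAP1 and, from 50% of the reads, that of LRP6. The intervals of these 4 genes, LRP1, LRP5, LRPAP1 and LRP8, were wholly above 1 on the deposited scale, as were those of 31.4% of the 14057 genes and 51.6% of the genes with at least 200 reads in both libraries together. On the protein-coding scale the interval of LRP8 was 0.923 to 1.68 and included 1.

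The Vps10p receptors SORT1 and SORL1 and the receptors LRP4 and LRP10 had intervals that include 1 on the deposited scale, so a difference was not detectable there at this depth. With equal RPKM sums the intervals were wholly above 1 (SORT1 2.04 to 3.33, SORL1 1.97 to 3.64, LRP10 2.28 to 3.65, LRP4 2.37 to 4.17). Under the other scalings they included 1. SORT1, which in hepatocytes binds apolipoprotein B and sorts lysosomal proteins, had 226 reads in the IP, 98 in the input and a ratio of 1.09 (0.855 to 1.39). SORL1, which sorts the amyloid precursor protein and lipoprotein lipase, had 149 reads in the IP, 63 in the input and a ratio of 1.12 (0.826 to 1.52). LRP10 had 260 and 102 reads, with a ratio of 1.20 (0.953 to 1.53). LRP4 had 194 and 70 reads, with a ratio of 1.31 (0.990 to 1.74). In the order of ratios, from LRP6 over SORT1, SORL1, LRP10, LRP4, LRP8, LRPAP1 and LRP5 to LRP1, every pair of neighbours overlapped in their intervals except LRP5 and LRP1, and these also overlapped from 50% of the reads (1.49 to 2.08 and 2.00 to 2.30).

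**Figure D2:**
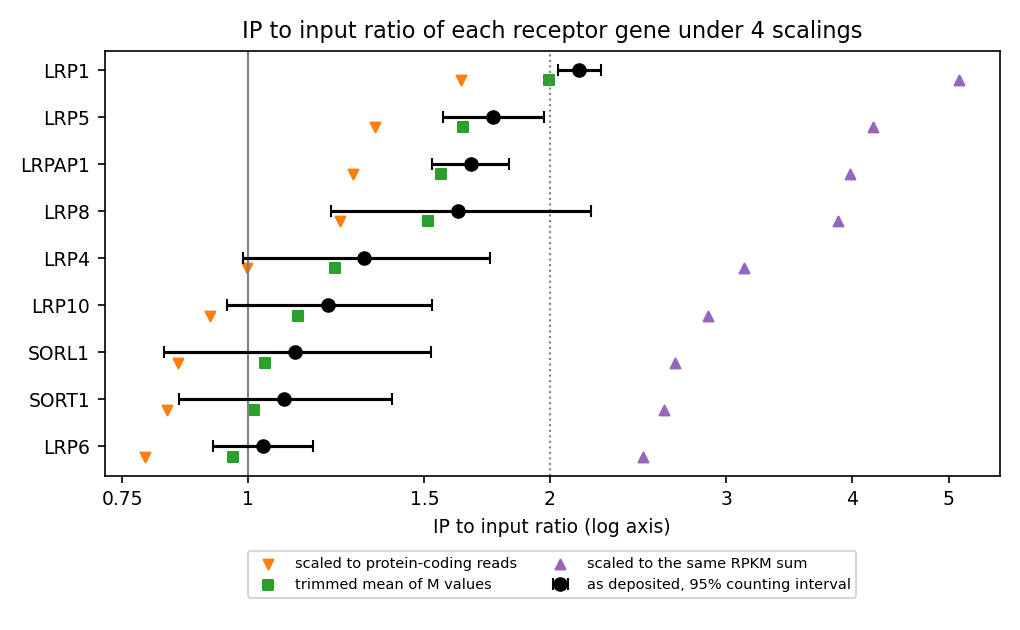
IP to input ratio of each gene on a log axis. Black points with bars give the deposited scale with the 95% counting interval, coloured symbols the same ratio under 3 other scalings, and vertical lines stand at 1 and 2. LRP1 is highest and LRP6 lowest under every scaling drawn, while 5 genes lie below 1 on the protein-coding scale and all 9 above 2 after scaling to the same RPKM sum.

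No other gene of the table shared exon bases with the 9 on the same strand. On the opposite strand, LRP4-AS1 covered 5.89% of the merged exons of LRP4 and had 29 IP and 4 input reads. AL606760.1 covered 5.32% of LRP8 with 14 IP and 11 input reads. LRP1-AS covered 0.537% of LRP1 with 44 IP and 25 input reads. A strand-keeping kit was used, but no source used here gives the strand setting of the counting.

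The deposited regions of IP enrichment (peaks) fell in 4 of the 9 genes, LRP1, LRP5, LRP6 and LRPAP1, against 21.5% of the 14057 genes. These 4 had at least 962 IP reads and the other 5 at most 260. Of all genes with at least 500 IP reads 53.8% had a peak, and of those with 100 or more but under 500 reads 34.6% had one. The 9 genes together held 32 peaks, of which LRP1 held 25, LRP5 4, LRP6 2 and LRPAP1 1. Leaving out LRP1 leaves 7 peaks. Per 1000 IP reads LRP1 and LRP5 were close, with 2.86 and 2.92 peaks, LRP6 had 2.08 and LRPAP1 0.436, against a median of 2.41 over the 1151 genes with at least 500 IP reads and a peak. Per 1000 merged exonic bases LRP1 had 1.20 peaks, above 93.4% of those genes, and LRP5 had 0.647. LRP6 had 0.193 and LRPAP1 0.0846 peaks per 1000 exonic bases, under the median of 0.425. The limits on reads in these comparisons were chosen after the values were seen.

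**Figure D3:**
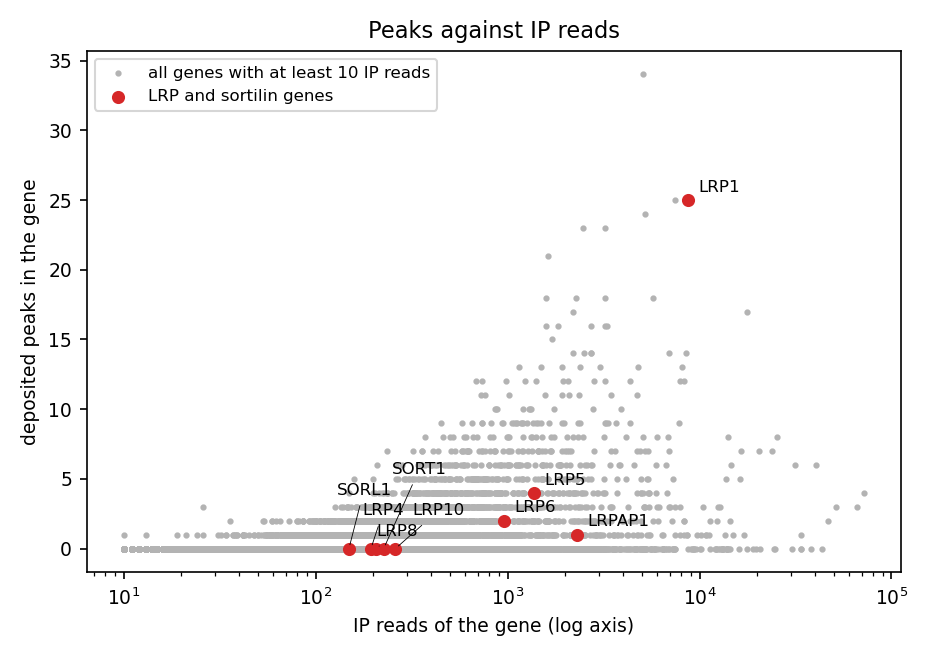
Deposited peaks per gene against the IP reads of the gene, on a log axis, for all genes with at least 10 IP reads (grey) and for the 9 genes (red). LRP1 lies near the top with 25 peaks and 8753 reads, and the 5 genes without a peak lie between 149 and 260 reads.

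The LRP1 gene spans chromosome 12 from 57128483 to 57213361 on the plus strand in the deposited table, with 89 merged exons of 20859 bases. The files state no build. Both ends of LRP1, LRP6, LRP10 and SORL1 equal those of the RefSeq genes of GRCh38.p14. Peaks of LRP1 lay between 13.3% and 97.1% of the length of its merged exons. The first 2774 merged exonic bases, which are exons 1 to 8 and the start of exon 9, held no peak, and neither did a stretch of 2755 bases from exon 16 to exon 25. Peaks covered 25.7% of the merged exons. With the exons split into 10 stretches of equal length, coverage was highest in bases 14602 to 16687, at 76.3%, followed by 52.5% in bases 16688 to 18773. Most of this came from 1 long peak in each, of 1078 bases in exons 72 to 74 and of 1045 bases in exons 77 to 79. Merged exons 73, 74 and 78 there are long, with 912, 623 and 780 bases, and whether the peak caller used all of these bases is unknown. Coverage was 0% in bases 1 to 2086 and 11.5 to 31.4% in the 6 stretches between. The stretch at the 3′ end, bases 18774 to 20859, held 5 peak centres, the most of the 10, but 18.2% of it was covered, by peaks of 51 to 126 bases.

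Most LRP1 peaks had folds not far above the lowest that the peak list holds. Peak folds are values of the authors' deposited table, which lists no fold under 2, and how they were scaled between the libraries is unknown, so they are set beside gene ratios without a comparison. For LRP1 the folds in the authors' deposited table ran from 2.07 to 3.12 with a median of 2.22, and the gene ratio was 2.14. The peak with the smallest p of LRP1 in the authors' deposited table (p-value 2.26e-09, fold 2.38) covered 1045 exonic bases in exons 77 to 79, at chr12:57206537-57209142. The peak with the highest fold in the authors' deposited table, 3.12 with a false discovery rate of 0.0695, was also the first from the 5′ end and covered 76 bases of exon 9, at chr12:57154688-57154763. Of the 25 peaks, 23 had a false discovery rate of at most 0.05 in the authors' deposited table. An intron lay inside 15 of the 25, so that their exonic part was shorter than their genomic span of up to 2606 bases. The peak numbers of LRP1 ran from 4862 to 4891, with 5 numbers absent from the list.

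An LRP1 intron also holds a separate entry of the expression table, MIR1228, whose sequence is shown because the whole intron between merged exons 51 and 52 is the hairpin. The hairpin and this intron both run from 57194504 to 57194576, with 0 bases between the hairpin and either exon and a GC content of 75.3%. The hairpin and both mature arms, from RefSeq (GRCh38.p14), are given 5′ to 3′, with the seeds of the arms (bases 2 to 8) in capitals.
MIR1228 hairpin: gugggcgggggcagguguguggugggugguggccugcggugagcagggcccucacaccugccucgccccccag
hsa-miR-1228-5p: gUGGGCGGgggcaggugugug
hsa-miR-1228-3p: uCACACCUgccucgcccccc
The intron and the hairpin share all their bases, so reads of unspliced LRP1 RNA and of the microRNA precursor cannot be told apart. MIR1228 had 9 IP and 0 input reads. With the input set to a floor of 3 reads its ratio was 1.42, which is not a lower bound. So few reads do not settle a difference between the IP and the input. The nearest LRP1 peaks lay in exons 48 to 49 and 55 to 56, so no peak covered the exons that flank the hairpin. Neither seed was shared with another of the 2370 mature human microRNA names in the table.

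LRP5 (chromosome 11, 68312591 to 68449275, plus strand, 27 merged exons of 6182 bases) had 4 peaks and none in the first 40.4% of its merged exons. Their centres were at 41.2, 57.7, 84.9 and 92.7% of the merged exons. Their folds in the authors' deposited table were 2.65 to 3.02, beside a gene ratio of 1.76. The peak with the smallest p in the authors' deposited table (p-value 0.00752, fold 2.67) lay in exon 10, at chr11:68406654-68406754, and was the only one of the 4 with a false discovery rate of at most 0.05. The peak with the highest fold, 3.02 in the authors' deposited table, covered 288 exonic bases of exons 22 to 24, at chr11:68438641-68445641. Peaks covered 16.1% of the LRP5 exons. The deposited LRP5 entry starts 14179 bases downstream of the RefSeq gene and ends at the same base. The percentages along LRP5 are counted from the deposited start.

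LRP6 (chromosome 12, 12116025 to 12267044, minus strand, 23 merged exons of 10369 bases) had 2 peaks and a ratio of 1.04 as a whole gene. One covered 226 exonic bases of exons 11 and 12, at chr12:12159101-12159950, with a fold of 2.69 and a false discovery rate of 0.0164 in the authors' deposited table. The other covered 51 bases within the last merged exon, which is 5396 bases long, at chr12:12118449-12118499. Its fold was 3.70, the highest of all 32 peaks, with a false discovery rate of 0.0766 in the authors' deposited table. Together they covered 2.67% of the LRP6 exons.

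LRPAP1 (chromosome 4, 3503612 to 3532446, minus strand, 11 merged exons of 11816 bases) had 1 peak of 76 bases in exon 8, at chr4:3516392-3516467, with a fold of 2.503 and a false discovery rate of 0.0106 in the authors' deposited table. Its last merged exon makes up 9425 of its 11816 bases and held no peak. With 2295 IP reads LRPAP1 had more reads than LRP5 or LRP6 and fewer peaks than either.

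The other 5 genes held no peak. SORT1 lies on the minus strand of chromosome 1 from 109309568 to 109397918 with 25 merged exons, and LRP8 on the same strand from 53242364 to 53328469 with 27. On chromosome 11 are SORL1, plus strand, from 121452314 to 121633763 with 52 merged exons, and LRP4, minus strand, from 46856717 to 46918642 with 38. LRP10 lies on the plus strand of chromosome 14 from 22871740 to 22881713 with 7 merged exons.

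**Figure D4:**
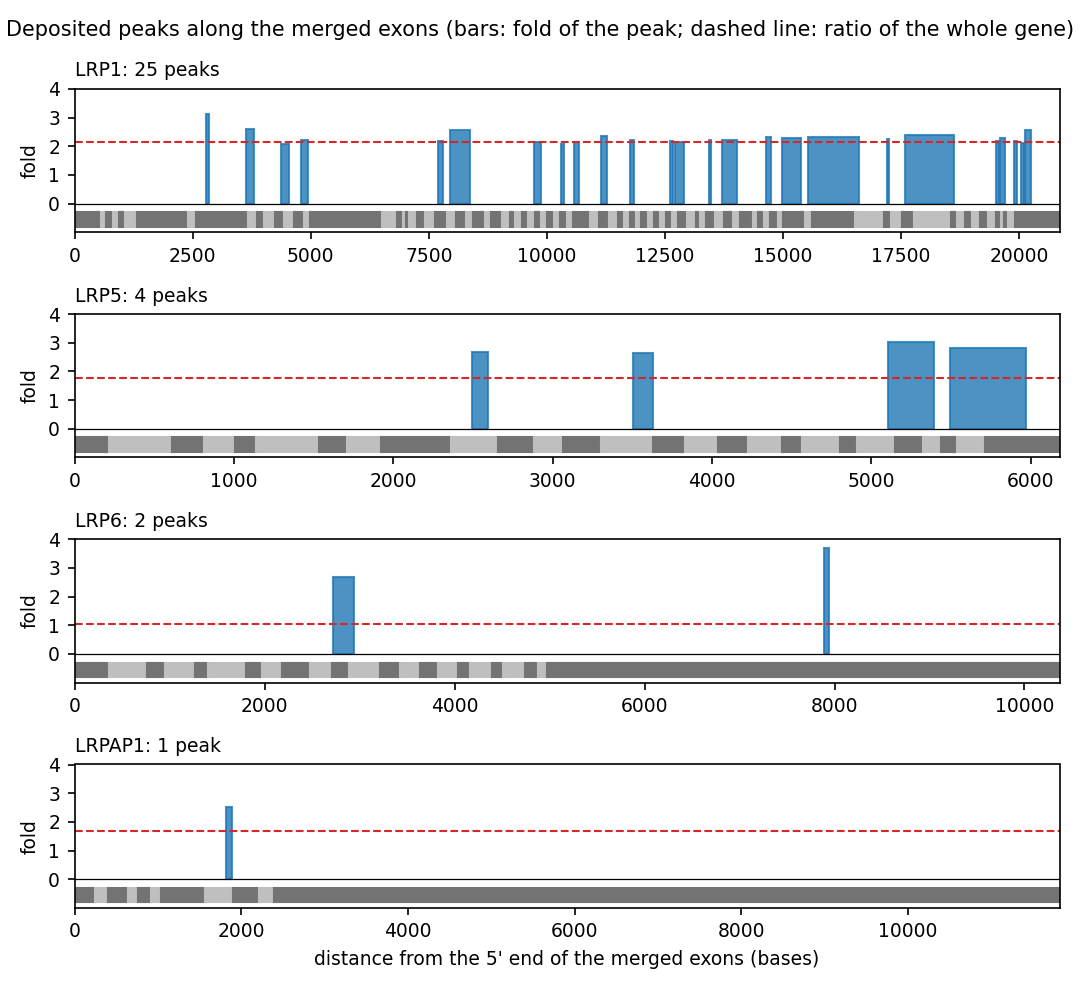
Peaks along the merged exons of the 4 genes that have any, as distance from the 5′ end in bases. Bars show the extent and fold of each peak, the dashed line the IP to input ratio of the whole gene, and alternating greys under the axis the merged exons. The 25 bars of LRP1 end at folds of 2.07 to 3.12, most of them above its dashed line at 2.14, and the bars of LRP6 at 2.69 and 3.70 with its line at 1.04. No fold under 2 is listed.

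Compared with the 7611 peaks of other genes, the 32 peaks, 25 of them in LRP1, had a lower median fold and a median position nearer to the 3′ end. Their median fold was 2.29 against 2.72, and 9.38% had a fold of at least 3 against 37.1%. The median position of their centres was 61.0% of the merged exons, against 41.1%, and without LRP1 it was at 0.577 of the length, from 0 at the 5′ to 1 at the 3′ end. The last 20% of the merged exons held 28.1% of their centres, against 10.1%, and the first 20% held 9.38%, against 24.2%. None of the 32 touched a first exon, which 10.4% of the other peaks did, and 15.6% touched a last exon, against 22.05%. Since 25 of the 32 come from LRP1, these shares mainly describe that gene. Over the 894 peaks of the 63 genes with at least 10 peaks, LRP1 included, 2.01% touched a first and 12.1% a last exon. Of the 9 genes only LRP1 has that many peaks. Its shares were close to these, with 0% in a first and 12.0% in a last exon. In the 63 genes the median position was 46.2% and the median fold 2.65, beside 61.4% and 2.22 in LRP1.

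Longer genes had higher ratios in these libraries, and the 9 genes are all long. The median log2 ratio rose from -0.06 for genes under 1000 merged exonic bases to 0.44 for genes of 12000 or more. Of the 3 members in the longest range, LRP1 was above that range's median with 1.08, LRP8 close to it with 0.41 and SORL1 below it with 0.09. In the range of 8000 to 12000 bases, with a median of 0.30, LRPAP1 had 0.71, LRP4 0.30, SORT1 0.10 and LRP6 0.05. In the range of 5000 to 8000 bases, with a median of 0.19, LRP5 had 0.78 and LRP10 0.23. LRP1, LRP5 and LRPAP1 thus stood above the median of their range and LRP6 below it. SORT1 and SORL1 were below it in value. Their counting intervals of 0.855 to 1.39 and 0.826 to 1.52 are of plain ratios without the pseudocount. They cannot be set directly against these medians, so on which side these 2 genes lie is not settled here. The pseudocount of 1 RPKM pulls low genes toward 0, so that LRP8, with a plain ratio of 1.62, reads only 0.41 here.

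**Figure D5:**
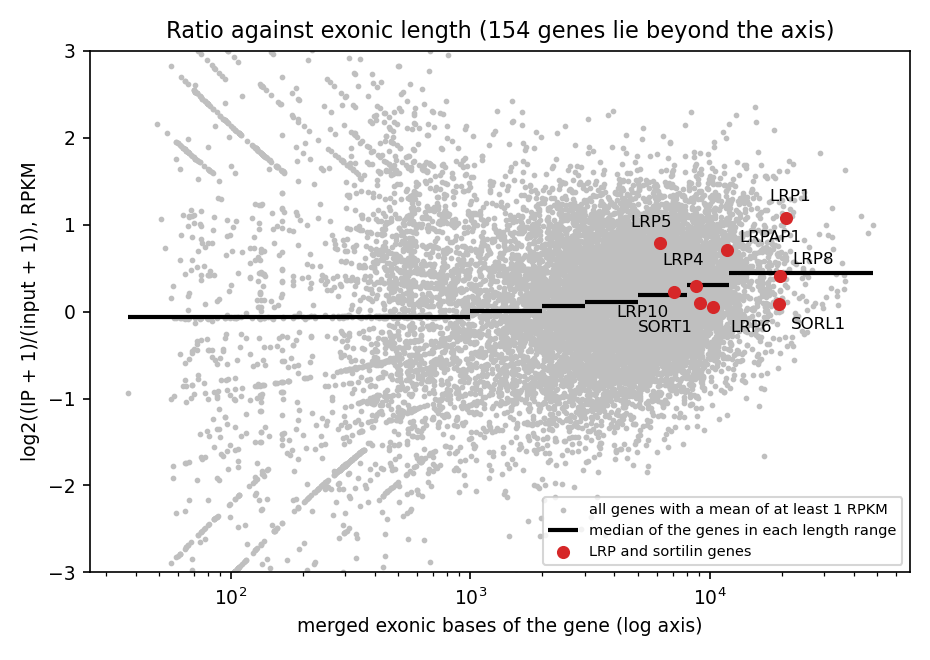
Log2((IP + 1)/(input + 1)) of RPKM against the merged exonic bases of each gene, on a log axis, for the 14057 genes (grey), the median in each length range (black bars) and the 9 genes (red). The black bars climb from -0.06 to 0.44, LRP1, LRP5 and LRPAP1 lie above them, and 154 genes lie beyond the vertical axis.

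The genes most like LRP1, by ratio and peak density over the 62 other genes with at least 10 peaks, were BOD1L1, LARP1 and PTPRF. BOD1L1, which protects stalled replication forks, had 18 peaks, 1.13 per 1000 exonic bases, and a ratio of 2.27 (2.06 to 2.52). LARP1, a regulator of ribosomal protein mRNAs, had 11 peaks, 1.26 per 1000 exonic bases, and a ratio of 2.31 (2.13 to 2.51). PTPRF, a receptor tyrosine phosphatase, had 12 peaks, 1.12 per 1000 exonic bases, and a ratio of 2.03 (1.79 to 2.32). The likeness was the distance in log2 ratio and log2 peak density, each divided by its SD, and rests on 1 IP and 1 input.

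Among other receptors related to the 9, LRP3 had 172 and 48 reads in the IP and the input and a log2 ratio of 0.61 (ratio 1.69, 1.22 to 2.38). LRP11 had a log2 ratio of -0.02 (ratio 0.981, 0.694 to 1.40). LRP2, also called megalin, had 457 and 189 reads over 16109 exonic bases, a ratio of 1.14 (0.961 to 1.36) and 0 peaks. LRP1B and LRP12 were below the filter, as were SORCS2 and SORCS3 of the Vps10p receptors.

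Ligands of LRP1, SORT1 and SORL1 had the highest median of the lists compared, 0.42 against 0.14 for all genes, or 0.05 against -0.16 on the protein-coding scale. Many of these ligands had at least 500 IP reads, and the 2140 genes with that many had a median of 0.51 on the deposited scale, above that of the ligands. Medians, counts of 2-fold genes and the highest and lowest gene of this and the following lists are on the log2 scale with the pseudocount of 1, while ratios have none. On that log2 scale 11.3% of the 14057 genes were 2-fold higher and 8.25% 2-fold lower, which the counts of each list should be read against. Of the 19 ligands measured, 16 were above the median of all genes (15 on the protein-coding scale) and 0 were 2-fold higher or lower. The amyloid precursor protein gene APP was highest, with 11327 reads in the IP, 2857 in the input and a ratio of 1.87 (1.79 to 1.95). TFPI, the inhibitor of the tissue factor pathway that LRP1 clears, was lowest, with 791 and 553 reads and with a ratio of 0.675 (0.605 to 0.754). APOB, the protein of VLDL and LDL, had 38173 reads in the IP, 14128 in the input, a ratio of 1.27 (1.25 to 1.30) and 0 peaks. The ligands and inhibitors of LRP4, LRP5, LRP6 and LRP8 were mostly low, with 6 of 14 in the table measured. RELN, the ligand of LRP8, was highest, with 1323 and 342 reads, a ratio of 1.82 (1.62 to 2.06) and 8 peaks. SELENOP, a liver-made selenium carrier that LRP8 takes up, was lowest, with 1227 and 2020 reads (ratio 0.287, 0.267 to 0.308). It was the only one at least 2-fold lower, and with equal RPKM sums 0 were.

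Genes of receptor maturation and trafficking were spread on both sides of the median of all genes. The lists give counts on the deposited scale, and on the protein-coding scale the Golgi and retromer list had 0 genes 2-fold higher and 3 lower and the adaptor list 0 higher. Of 12 chaperone and protease genes, 6 were above the median of all genes. HSP90B1, which folds LRP6 among other clients, was highest with a ratio of 2.65 (2.60 to 2.71) and the only one 2-fold higher on the log2 scale, and the sheddase ADAM10 lowest with 0.808 (0.717 to 0.912). PCSK7, a protease, had 202 and 44 reads and a plain ratio of 2.17 (1.56 to 3.07), but 0.57 on the log2 scale. MESD, the chaperone of LRP5 and LRP6, had 1455 and 506 reads, a ratio of 1.36 (1.23 to 1.504) and 1 peak. Among 14 measured endocytic adaptor and turnover genes, with a median of 0.27, the adaptor subunit AP2A1 was highest with 161 and 21 reads (ratio 3.62, 2.29 to 6.003), and AP2S1 of the same complex lowest with 0.855 (0.546 to 1.36). Among 19 Golgi and retromer sorting genes the median was 0.10. On the log2 scale 1 of them was at least 2-fold higher and 1 lower, beside 11.3% and 8.25% of the 14057 genes, while VPS26A had a plain ratio of 0.468 (0.361 to 0.606). The clathrin adaptor subunit AP1B1 was highest with a ratio of 2.23 (1.82 to 2.75) and 6 peaks, and the retromer-linked sorting nexin SNX6 lowest with 0.347 (0.265 to 0.452).

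The Wnt receptor complex, in which LRP5 and LRP6 act, had a median of 0.27 over 22 measured genes, or -0.06 on the protein-coding scale, and 0 genes were 2-fold higher or lower on the log2 scale. In plain ratios AXIN1 (174 and 38 reads) was at 2.16 (1.51 to 3.15) and CSNK1G1 (88 and 18 reads) at 2.31 (1.38 to 4.07). CSNK1G2, a kinase that phosphorylates LRP6, was highest in log2 ratio with 0.89 (397 and 96 reads, ratio 1.95, 1.56 to 2.46). The receptor FZD6 was lowest with 60 and 54 reads (ratio 0.524, 0.357 to 0.772). Of the 22, 7 had a peak, beside 21.5% of the 14057 genes and 34.6% of genes with 100 or more but under 500 IP reads.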

How the data were processed

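The submitters' processing notes list Trimmomatic, a read trimmer, and STAR 2.5.3a, an aligner; counter, annotation, peak caller and build were not given in the sources used here. Gene values are deposited as RPKM, identified from the values: multiplied by exonic length, both columns have equal sums, and all values are whole multiples of 1 read within 0.01. Whole reads were recovered from them for depth and intervals. Molecular identifiers were attached, per the labels, but whether the values count molecules is unknown. Per the file headers, each of the 7643 deposited peaks has a score (not used), a fold (ratio), a p-value and its false discovery rate. The authors made this list from both libraries.

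The log2 ratio used a pseudocount of 1 RPKM and a minimum mean of 1 RPKM, which understates changes of low genes. Ratios of single genes have no pseudocount and an exact (Clopper-Pearson based) 95% interval. Exons of all isoforms were merged and numbered from the 5′ end. Each peak went to the same-strand gene that shares most exonic bases with it, and 1 base sufficed. The centre of a peak is its middle exonic base. The members and lists were chosen with earlier results of these data known. Named were all 9 members, the 3 genes nearest to LRP1 and the highest and lowest measured gene of each of 8 lists. In the list of other Vps10p receptors 0 genes were measured, so it has no highest or lowest. All peaks of members with at most 3 peaks were named, and otherwise the peaks with the smallest p and highest fold. LRP2, APOB, MESD and MIR1228 were named for their role, and PCSK7, VPS26A, AXIN1 and CSNK1G1 for plain ratios past 2-fold, after values were seen. Of the listed pathway genes, those absent from the table or below the minimum were left out of medians, and 1 list is described without its counts because a member is not reported here. Protein-coding genes came from the RefSeq table of GRCh38.p14, which holds 19414 of the 25556 symbols. Alternatives were a pseudocount of 0.1, no filter, 4 scalings (including the trimmed mean of M values, computed in Python on recovered reads) and stricter peak limits. The scripts were tested on simulated data. Computing used matplotlib 3.10.9, scipy 1.17.1, pandas 2.3.3, numpy 2.4.6 and Python 3.11.15.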

Additional observations from a re-analysis of the deposited data

How the results depend on the processing

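The number of members at least 2-fold higher, 1 as deposited and with a pseudocount of 0.1 or no filter, was 0 after centring on the median, 0 with scaling to protein-coding reads, 0 with the trimmed mean of M values and 8 when both libraries were given equal RPKM sums. For the members the median log2 ratio, 0.30 as deposited, was -0.0027 with scaling to protein-coding reads and 1.36 with equal RPKM sums, where the median of all genes was -0.16 and 1.21. Over all genes, higher genes made up 57.9% of 2-fold calls as deposited, and 44.6, 50.1, 29.7 and 94.98% with centring, the trimmed mean, protein-coding reads and equal RPKM sums. With peaks of a fold of at least 3 the members held 3 peaks, with a median position of 0.764 of the merged exons instead of 0.610, and over all covered bases that position was 0.746. Without LRP1, chosen after seeing the data, 7 peaks were left. A false discovery rate of at most 0.05 left 26 peaks in the same number of genes, 4. The interval of LRP6, which included 1 as deposited, was wholly below 1 with protein-coding reads (0.790, 0.705 to 0.887) and wholly above 1 with equal RPKM sums (2.48, 2.21 to 2.78), and that of LRP8, above 1 as deposited, included 1 with protein-coding reads (0.923 to 1.68). No paired analysis was possible because each group has 1 library, and for the same reason no library could be left out. With equal RPKM sums the intervals of SORT1, SORL1, LRP10 and LRP4, which included 1 as deposited, were also wholly above 1. The cause of these moves was not tested. The 5 members without a peak had at most 260 IP reads, which limits what could be called there.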
